A study of Mus musculus with 6 samples.

Results

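The genes described are 10 immediate early genes of the mouse: Fos, Fosb, Jun, Junb, Jund, Egr1, Egr2, Egr3, Nr4a1 and Atf3. They were chosen as all array probes whose gene name is one of these symbols, which gave 12 probes of the 41174 on the array, or 10 of its 28307 genes and sequences. The cells were pre-pro-B cells, the stage at which B cell development stops when the transcription factor Ebf1 is missing, and all of them were Ebf1-/-. One group had been infected with the retrovirus pMYs-Ebf1-IRES-EGFP, whose insert the sample titles name Ebf1beta (n = 3). The other had been infected with pMYs-IRES-EGFP, which encodes EGFP alone (n = 3). Both groups grew on an OP9 stromal layer in medium holding Flt3-ligand, stem cell factor and interleukin 7, each at 10 ng/ml. They were cultured for 24 h after infection and sorted for EGFP. Ebf1 was thus supplied by a viral vector, and no age or strain of the source animals is given in the labels. RNA (0.2 µg a sample) was labelled with Cy3 and hybridised to 1-colour Agilent arrays.

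Immediate early genes are transcribed within minutes of a signal from a growth factor, an antigen receptor or a stress, without the need for new protein. Fos and Jun family proteins pair through leucine zippers into the dimers called AP-1, which bind TGANTCA. Egr proteins are zinc finger factors that bind GCGNGGGCG, Nr4a1 (Nur77) is an orphan nuclear receptor, and Atf3 is a stress-induced member of the ATF family. Many of these genes carry a CArG box, the site of serum response factor, or the core TGACGT of a cAMP response element. In B lineage cells Egr1 is known as a target of antigen receptor signals.

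The 250 bases upstream of the start site were read from RefSeq (GRCm38.p6) for 8 of the 10 members (all but Egr1 and Egr3), in 12 windows. They were searched on both strands for TGACGT, the CArG box, the AP-1 motif TGANTCA, the Egr motif GCGNGGGCG and CCCNNGGG, the core of the palindrome that Ebf proteins bind. No 2 matches in a window overlapped. Of 32851 promoter windows of the same length in the table, 6.47% held TGACGT, 6.75% held TGANTCA, 4.7% held GCGNGGGCG, 1.47% held a CArG box and 11.8% held CCCNNGGG. The Fos window (chr12:85473640-85473889, plus strand) held TGACGT 66 bases before the start site. The Egr2 window that begins at 67537619 (chr10:67537619-67537868, plus strand) held a CArG box 72 bases and TGACGT 56 bases before it, and another Egr2 window (chr10:67535249-67535498, plus strand) held CCCNNGGG 108 bases before its start site. The Nr4a1 window (chr15:101266596-101266845, plus strand) held CCCNNGGG 169 bases and GCGNGGGCG 60 bases before it. The Fosb window (chr7:19310046-19310295, minus strand) held CCCNNGGG 173 bases and GCGNGGGCG 50 bases before it. Atf3 held TGACGT 8 bases before its start, and none of the 5 motifs was in the windows of Jun, Junb or Jund. Of the 8 members whose windows were read, the 4 with the widest spread among arrays of a group have their sequences shown. They run 5′ to 3′, with motif matches in capitals, in either orientation.
Fos: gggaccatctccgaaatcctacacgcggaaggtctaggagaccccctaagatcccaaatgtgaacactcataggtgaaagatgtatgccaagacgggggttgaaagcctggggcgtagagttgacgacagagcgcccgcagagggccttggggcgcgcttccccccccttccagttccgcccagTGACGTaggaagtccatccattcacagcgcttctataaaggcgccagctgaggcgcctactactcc
Egr2: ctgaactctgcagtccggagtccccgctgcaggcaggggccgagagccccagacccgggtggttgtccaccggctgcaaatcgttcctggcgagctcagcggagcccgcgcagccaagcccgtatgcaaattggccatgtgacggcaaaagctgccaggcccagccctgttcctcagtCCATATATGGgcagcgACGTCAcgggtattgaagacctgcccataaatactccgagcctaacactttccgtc
Nr4a1: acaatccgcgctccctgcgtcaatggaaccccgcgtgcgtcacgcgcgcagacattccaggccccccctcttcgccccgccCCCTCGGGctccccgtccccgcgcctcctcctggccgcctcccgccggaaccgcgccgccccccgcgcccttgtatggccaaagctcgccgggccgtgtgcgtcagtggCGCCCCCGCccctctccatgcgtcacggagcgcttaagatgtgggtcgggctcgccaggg
Fosb: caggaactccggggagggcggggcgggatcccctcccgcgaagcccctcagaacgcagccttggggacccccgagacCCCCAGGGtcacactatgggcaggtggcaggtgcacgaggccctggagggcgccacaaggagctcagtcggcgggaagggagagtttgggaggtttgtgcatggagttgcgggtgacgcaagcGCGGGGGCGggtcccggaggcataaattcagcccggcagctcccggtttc

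Levels are log2 signal minus the 75th percentile of the same array, so 0 is that percentile, and levels of different probes are not comparable. The 75th percentile signal was 316 to 364 on Ebf1-virus arrays and 240 to 366 on control-virus arrays. The share of probes well above background was 50.4% to 59.8% on Ebf1-virus arrays and 46.3% to 50.2% on control-virus arrays. The 1 Ebf1 probe that was tested lay at 0.22 to 0.40 in Ebf1-virus cells and 0.10 to 0.86 in control-virus cells, and since it may lie outside the part of the transcript that the virus carries, it does not check the labels. A second Ebf1 probe was not tested. The arrays lay on 3 slides. Slide 1 held Ebf1-virus replicate 1 and control-virus replicate 2, slide 2 the other two control-virus arrays and slide 3 the other two Ebf1-virus arrays. Slide and virus can be told apart only on slide 1, so the value with slide as a block equals the difference between its 2 arrays. The labels do not say that replicates came from separate cultures or animals, so p-values measure the spread between these samples, which may be technical. In bulk RNA, fewer cells of a type and less RNA per cell cannot be told apart.

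None of the 9 tested probes of 8 members passed the test between Ebf1-virus and control-virus cells in either direction (limma, Benjamini-Hochberg adjusted p over 20455 tested probes, threshold 0.05). In the same fit 21.7% of all tested probes were called, 11.5% higher and 10.2% lower. At an unadjusted p under 0.05, 1 member probe (Fosb) passed, against 36% of all tested probes. The median log2 change over the 8 tested members was -0.50, against -0.065 over all 13837 tested genes. With slide as a block these medians were 0.19 and -0.11, so the sign of the members' median turned. The members' median was -0.98 without Ebf1-virus replicate 1 and -0.17 without Ebf1-virus replicate 3. Egr3 and Atf3 were well above background on no array and were not tested.

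**Figure D1:**
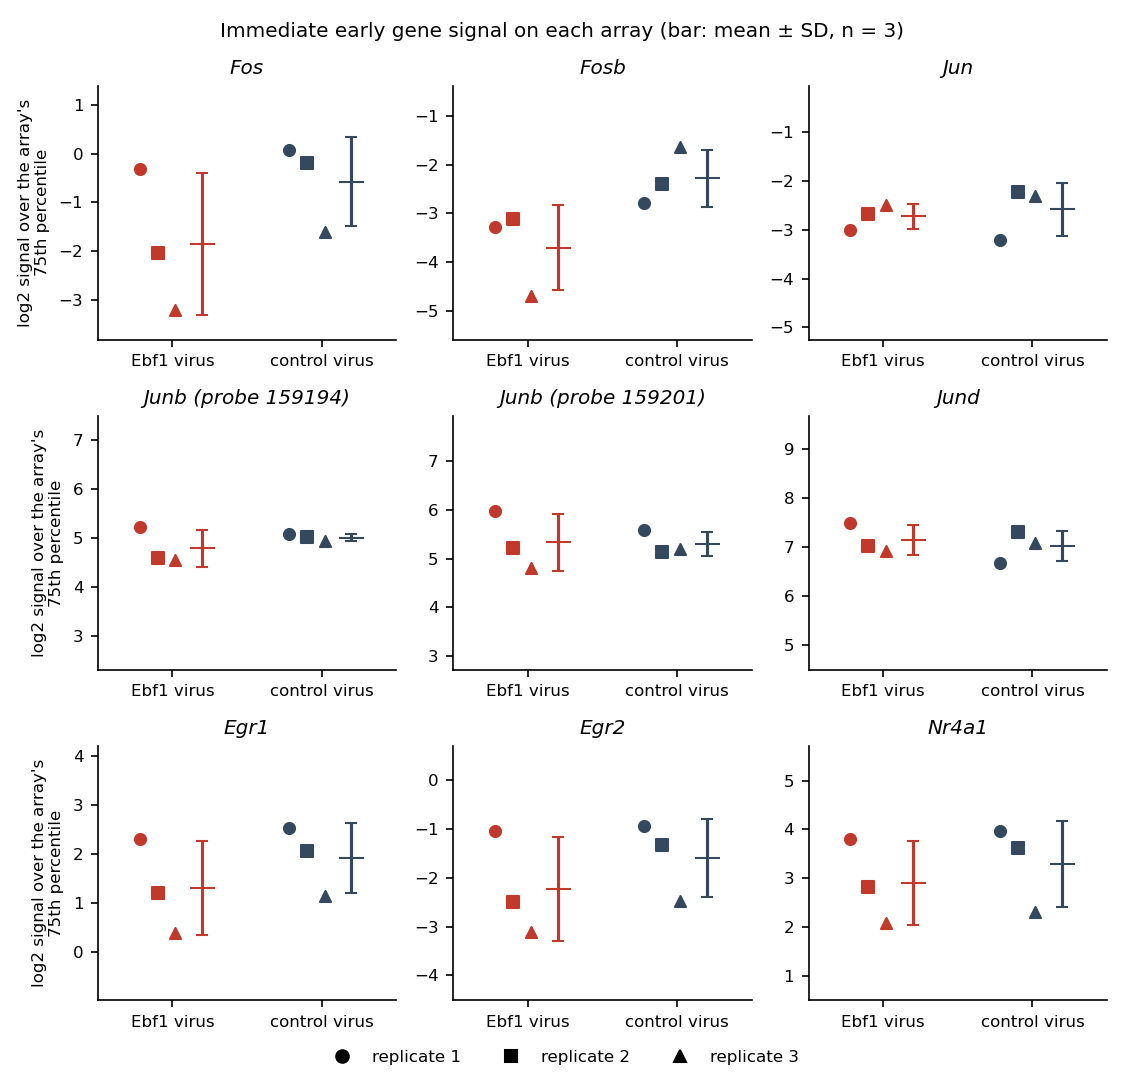
Level of each tested probe on every array (log2 signal over the array's 75th percentile), Ebf1-virus cells in red on the left and control-virus cells in blue on the right. Symbols mark replicate numbers, bars the mean ± SD of 3 arrays, and every panel spans the same log2 range; Fosb is the 1 probe whose groups do not overlap.

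Fos encodes the AP-1 subunit that must pair with a Jun protein to bind DNA. Its probe (chr12:86817900-86817959, mm9, plus strand) was at -0.31, -2.03 and -3.22 in Ebf1-virus replicates 1, 2 and 3. In control-virus replicates 1, 2 and 3 it was at 0.08, -0.20 and -1.62. The groups overlapped, since Ebf1-virus replicate 1 lay above control-virus replicate 3. The log2 change was -1.28 ± 0.73 (SE, 95% interval -2.98 to 0.43, limma adjusted p = 0.249), or -0.12 within slide 1 (adjusted p = 0.943 with slide as a block). Leaving out 1 array at a time moved it from -2.05 without Ebf1-virus replicate 1, which passed (adjusted p = 0.0495), to -0.60 without Ebf1-virus replicate 3 (adjusted p = 0.553). With normexp background correction it was -0.75 (adjusted p = 0.184).

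Fosb, a close relative of Fos with the same partners, had the most negative estimate of the 9 probes. Its probe (chr7:19888477-19888536, mm9, minus strand) was at -3.28, -3.11 and -4.70 in Ebf1-virus replicates 1 to 3, against -2.79, -2.40 and -1.64 in control-virus replicates 1 to 3. All Ebf1-virus arrays lay below all control-virus arrays, as the groups did not overlap, which held for 42.6% of tested probes in one direction or the other. The log2 change was -1.42 ± 0.46 (SE, 95% interval -2.49 to -0.36), with an adjusted p of 0.0637, and -0.88 within slide 1 (adjusted p = 0.515). The signal was low, 12.1 to 40 in Ebf1-virus cells and 45.3 to 83.8 in control-virus cells in scanner units. With normexp background correction the estimate was -0.59 (adjusted p = 0.0722), and with a trended, robust variance it passed (adjusted p = 0.0429). Leaving out 1 array gave -1.72 (without Ebf1-virus replicate 2) to -0.92 (without Ebf1-virus replicate 3), with adjusted p-values of 0.0617 and 0.109.

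Jun encodes the AP-1 subunit that can also pair with itself. Its probe (chr4:94715864-94715923, mm9, minus strand) was at -3.01, -2.68 and -2.49 in Ebf1-virus replicates 1 to 3 and at -3.20, -2.22 and -2.31 in control-virus replicates 1 to 3. The groups overlapped, with replicate 1 the lowest in both. The log2 change was -0.15 ± 0.28 (95% interval -0.81 to 0.51, adjusted p = 0.735), and -0.79 within slide 1 (adjusted p = 0.285).

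Junb, a Jun relative often opposed to Jun in its effects, was measured by 2 probes that overlap on the genome. The first (chr8:87500843-87500902, mm9, minus strand) was at 5.22, 4.59 and 4.55 in Ebf1-virus replicates 1 to 3, against 5.08, 5.01 and 4.93 in control-virus replicates 1 to 3. The second (chr8:87500881-87500940) was at 5.97, 5.22 and 4.81 in Ebf1-virus cells, against 5.58, 5.13 and 5.21 in control-virus cells. In both, Ebf1-virus replicate 1 was the highest of the 6 arrays and the groups overlapped. The log2 changes were -0.22 ± 0.20 (95% interval -0.70 to 0.25, adjusted p = 0.467) and 0.03 ± 0.29 (95% interval -0.65 to 0.72, adjusted p = 0.949). Within slide 1 they were 0.20 and 0.85 (adjusted p = 0.157 for the second probe), so the sign of the first turned there.

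Jund, the Jun relative that is broadly expressed in unstimulated cells, was measured by 1 probe. It (chr8:73224436-73224495, mm9, plus strand) was at 7.49, 7.02 and 6.93 in Ebf1-virus replicates 1 to 3, against 6.68, 7.30 and 7.08 in control-virus replicates 1 to 3. The highest value was in Ebf1-virus replicate 1 and the lowest in control-virus replicate 1, with the others between them. The log2 change was 0.13 ± 0.22 (95% interval -0.39 to 0.65, adjusted p = 0.71), and 0.19 within slide 1.

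Egr1 and Egr2 encode zinc finger activators with the same binding site. Egr1 (chromosome 18) was at 2.31, 1.20 and 0.39 in Ebf1-virus replicates 1 to 3, against 2.54, 2.07 and 1.14 in control-virus replicates 1 to 3. Egr2 (chr10:67004758-67004817, mm9, plus strand) was at -1.04, -2.51 and -3.12 in Ebf1-virus replicates 1 to 3, against -0.94, -1.34 and -2.48 in control-virus replicates 1 to 3. For both genes replicate 1 was the highest and replicate 3 the lowest of each group, and the groups overlapped. The log2 change of Egr1 was -0.62 ± 0.52 (95% interval -1.82 to 0.59, adjusted p = 0.43) and that of Egr2 was -0.63 ± 0.57 (95% interval -1.97 to 0.70, adjusted p = 0.461). Both signs turned within slide 1, to 0.24 for Egr1 and 0.29 for Egr2. Without Ebf1-virus replicate 1 the changes were -1.12 for Egr1 and -1.22 for Egr2, and without Ebf1-virus replicate 3 they were -0.16 and -0.19 in the same order, with none called. With normexp correction Egr2 was at -0.31 (adjusted p = 0.466).

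Nr4a1 encodes a nuclear receptor induced by antigen receptor signals in lymphocytes. Its probe (chr15:101105071-101105130, mm9, plus strand) was at 3.81, 2.83 and 2.09 in Ebf1-virus replicates 1 to 3, against 3.97, 3.62 and 2.30 in control-virus replicates 1 to 3. As with Egr1 and Egr2, replicate 1 was highest and replicate 3 lowest in each group. The log2 change was -0.39 ± 0.53 (95% interval -1.62 to 0.85, adjusted p = 0.635), and 0.19 within slide 1. It ran from -0.88 without control-virus replicate 3 to 0.023 without Ebf1-virus replicate 3. The intervals of Fos, Egr1, Egr2 and Nr4a1 all reach a log2 fall of more than 1, so these arrays neither show nor exclude a fall of that size.

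Egr3, another member of the Egr family, had 2 probes (chr14:70478827-70478886 and chr14:70481979-70482038, mm9, plus strand), and Atf3 had 1 (chr1:192994547-192994606, mm9, minus strand). The signals of the first Egr3 probe were 1.9 to 2.5 in Ebf1-virus cells and 2.5 to 7.1 in control-virus cells, in scanner units. Those of the second were 1.9 to 5.2 in Ebf1-virus cells and 1.8 to 8.3 in control-virus cells. Atf3 gave 2.5 to 6.8 in Ebf1-virus cells and 1.8 to 2.9 in control-virus cells. None of these was well above background, so no fold is given.

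**Figure D2:**
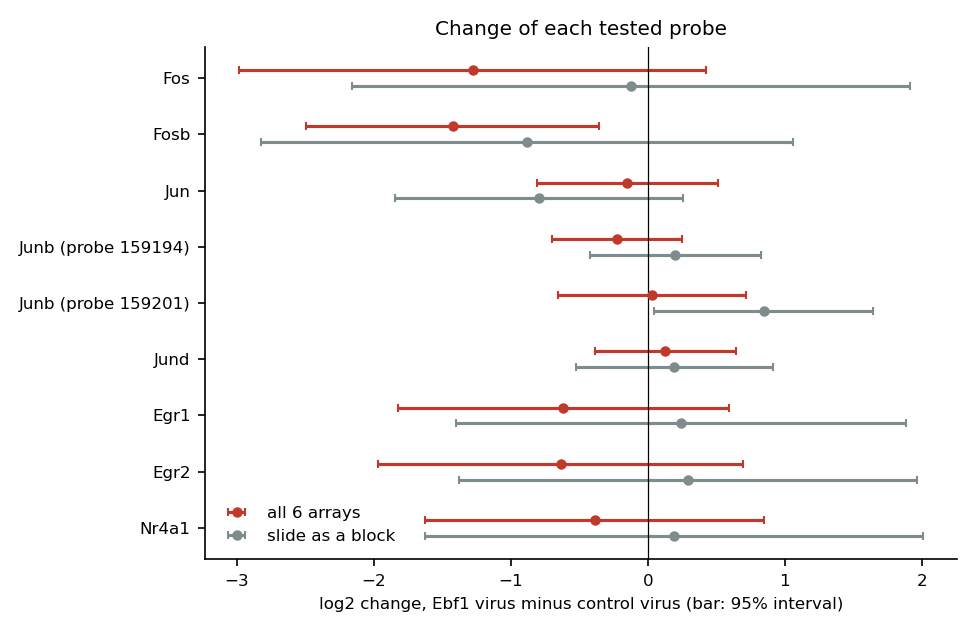
Log2 change of each tested probe, Ebf1 virus minus control virus, with its 95% interval. Red points use all 6 arrays and grey points have slide as a block; only the red Fosb interval and the grey interval of the second Junb probe leave out 0, and neither passed after adjustment.

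Under another scaling the calls differed. Subtracting each array's median in place of its 75th percentile lowered every log2 change by 0.31 and the median over all tested genes to -0.37. The medians lay near background, at 12.3 to 19.7 in Ebf1-virus cells and 7.62 to 13.1 in control-virus cells in scanner units. Under that scaling 4 members were called lower, with adjusted p-values of 5.42e-05 for Fos, 7.04e-06 for Fosb, 0.0375 for Egr1 and 0.033 for Egr2. The fit then gave every probe the same SE of 0.34, smaller than the SE of 0.73 that Fos had with the 75th percentile. The estimates of Jund and of the second Junb probe turned to -0.18 and -0.28. Over the whole array the calls were 1256 higher and 2642 lower under median scaling, against 2350 higher and 2085 lower with the 75th percentile.

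Fos, Egr1, Egr2 and Nr4a1 varied widely among arrays of one group, a pattern noticed after their values were seen. Fos spanned 7.47-fold over the Ebf1-virus replicates and 3.24-fold over the control-virus replicates. The spans were 3.79-fold and 2.64-fold for Egr1, 4.21-fold and 2.91-fold for Egr2, and 3.29-fold and 3.17-fold for Nr4a1, each in Ebf1-virus and then in control-virus cells. A range of over 1 on the log2 scale in both groups was found for 1.72% of tested probes. Fosb also had such ranges (1.59 in Ebf1-virus and 1.15 in control-virus cells), but with another order of replicates. The residual SD of Fos exceeded that of 99.7% of tested probes, and the shares were 99.3% for Egr2, 98.9% for Nr4a1, 98.8% for Egr1 and 97.9% for Fosb. Those of Jund (69.5%), Jun (85.8%) and the Junb probes (61.3% and 87.6%) were lower. All 4 genes, and the first Junb probe but not the second, were highest in replicate 1 and lowest in replicate 3 of both groups, an order shared by 385 of 13837 tested genes (2.78%).

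Repeated spots give the spread of one probe within an array. Fos, Egr2 and Jun each had 1 probe printed on 10 spots per array. The 10 Fos spots ran from -0.41 to -0.25 on Ebf1-virus replicate 1 and from -3.49 to -2.99 on Ebf1-virus replicate 3, with no overlap. The SD over the spots of 1 array was 0.052 to 0.152 for Fos, while the SD over the 3 array means was 1.46 in Ebf1-virus cells and 0.91 in control-virus cells. For Egr2 the SD over spots was 0.073 to 0.146, against 1.07 over Ebf1-virus arrays and 0.80 over control-virus arrays. Jun varied less between arrays, with an SD of 0.27 over Ebf1-virus and 0.54 over control-virus arrays, against 0.078 to 0.181 over spots. Spots of one array share the labelled RNA, the hybridisation and the scaling, and are not replicates of a condition.

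**Figure D3:**
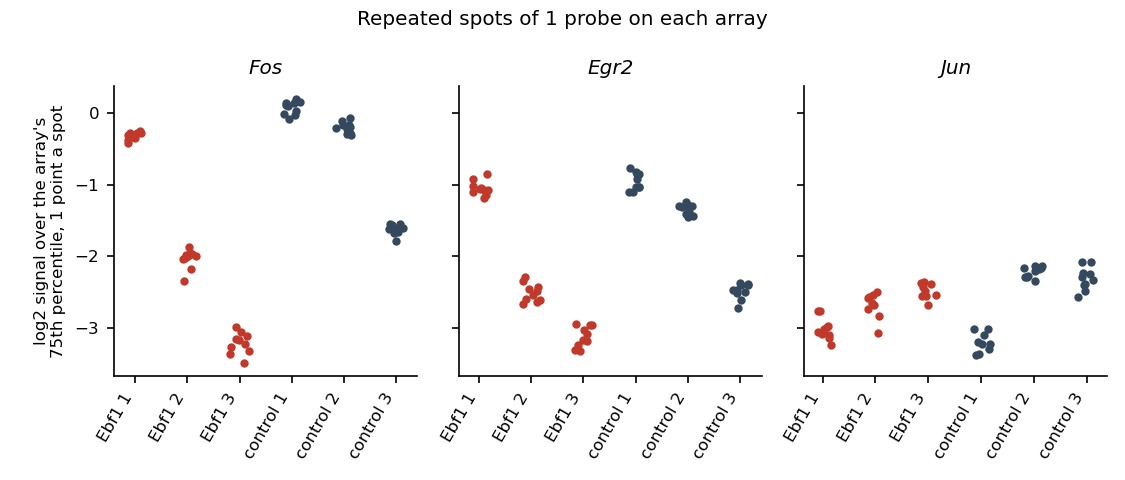
Single spots of the Fos, Egr2 and Jun probes on each array (log2 signal over the array's 75th percentile), red for Ebf1-virus and blue for control-virus arrays, 9 or 10 spots each. Spots of one array lie close together, while Fos and Egr2 differ widely between arrays of the same virus.

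The array profiles of Egr1, Egr2 and Nr4a1 were close to each other. Likeness was measured as the root mean square difference of log2 values, each gene centred on its own mean over the 6 arrays, over 12022 named genes. The nearest genes to Egr1 were Egr2 (0.12), Nr4a1 (0.17) and Osm (0.31), which encodes the cytokine oncostatin M, while the median gene lay at 0.82. The nearest to Fos were Egr2 (0.41), Egr1 (0.46) and Nr4a1 (0.56), with the median gene at 1.21. Within the 8 tested members, Egr2 and Nr4a1 lay 0.20 apart, Junb and Jund 0.36, Fos and Fosb 1.04 and Fos and Jun 1.37. With normexp correction the nearest 3 to Fos were Egr1, Nr4a1 and Egr2, and with quantile normalisation they were Egr2, Btbd11 and Egr1. With quantile normalisation Gpr141 replaced Osm beside Egr1, and with normexp correction Fos, Nr4a1 and Egr2 were nearest. These are descriptions over 6 arrays, which all genes share along with the scaling of each array.

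**Figure D4:**
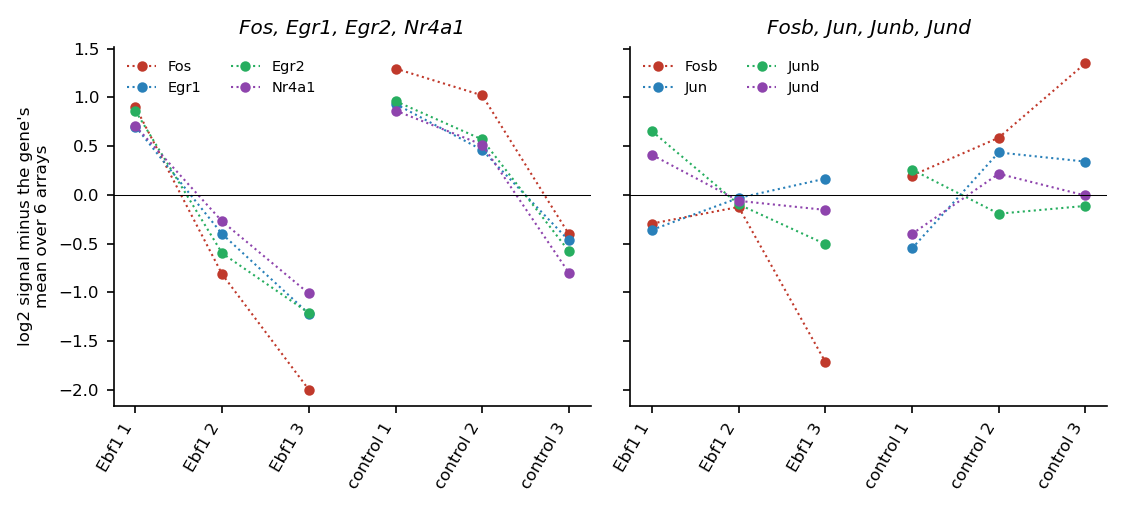
Log2 signal of each tested member minus its own mean over the 6 arrays, on the 3 Ebf1-virus and then the 3 control-virus arrays; dotted lines only join points of one gene. Fos, Egr1, Egr2 and Nr4a1 (left) are high in replicate 1 and low in replicate 3 of each group, and Fosb, Jun, Jund and Junb (right, its second probe) do not share that order.

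Other genes of the pathway were read from lists chosen with earlier results of these data known, so their counts are descriptions. A gene was represented by its brightest tested probe, and 12.6% of the 13837 tested genes were called higher and 11% lower. Of 17 tested AP-1 partners and relatives, 4 were higher and 1 was lower in Ebf1-virus cells, with a median log2 change of -0.17. Over all 9 lists, which include the cell type markers and heat shock genes below, 27 genes were higher and 23 lower. These counts became 9 and 14 with slide as a block and 8 and 29 with median scaling. Of all 13837 tested genes, 1739 were higher and 1524 lower. Those counts became 889 and 613 with slide as a block and 957 and 1781 with median scaling. Atf5, an ATF family factor of the stress response, rose by 1.04 ± 0.16 (limma adjusted p = 0.00335). Batf3, a Jun partner needed by some dendritic cells, fell by 1.62 ± 0.27 (adjusted p = 0.00506). Fosl1 (Fra-1), a Fos relative, rose by 0.77 ± 0.14 (adjusted p = 0.00822), but by 0.23 with normexp correction (adjusted p = 0.396) and by 0.64 within slide 1 (adjusted p = 0.163). No tested Egr or Nr4a relative passed, of 3, and the unadjusted p was smallest for the nuclear receptor Nr4a2, with a log2 change of -0.82 ± 0.32 (adjusted p = 0.113).

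Of 39 tested immediate early genes outside the 10, 9 were higher and 4 lower, with a median log2 change of 0.095. Ier5l, an Ier family gene, rose by 2.14 ± 0.17 (adjusted p = 0.000105), and by 1.49 with normexp correction (adjusted p = 1.3e-05). Gadd45g, a stress gene that acts on p38 and JNK signalling, rose by 1.48 ± 0.16 (adjusted p = 0.000566), and Dusp2, a phosphatase of ERK and p38, rose by 1.25 ± 0.15 (adjusted p = 0.00105). These 3 genes were named for their small p, so that their groups did not overlap is no further support. The groups did not overlap for 42.6% of tested probes. Dusp2 was at 6.52, 6.39 and 6.15 in Ebf1-virus replicates 1 to 3, against 5.01, 5.15 and 5.16 in control-virus replicates 1 to 3. The order of Fos and Egr1, with replicate 1 highest and replicate 3 lowest in both groups, was found in 5 of the 39 (Ier2, Btg2, Zfp36, Cd69 and Socs3). It was also found in Nr4a2, in 1 of the AP-1 partners (Mafk), in 1 of the 10 pre-pro-B markers (Flt3) and in 1 of the 14 stromal markers (Col5a2), and in 0 of the 27 upstream genes, 7 ERK feedback genes, 8 heat shock genes and 7 myeloid markers.

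Among 27 tested kinases and factors upstream of these genes, 5 were higher and 4 lower (median log2 change 0.13). Rasgrp3, which loads Ras with GTP downstream of the B cell receptor, was lower (limma adjusted p = 0.000299), by 4.97-fold when set against a floor. It was well above background on no Ebf1-virus array. With normexp correction, which adds an offset to every signal, its log2 change was -0.60 (adjusted p = 0.0318). The 4.97-fold value sets the control-virus mean against each Ebf1-virus array's own level or its lowest signal above background, whichever is higher. It is not a strict minimum of the fall. Elk4, a partner of serum response factor, rose by 0.89 ± 0.14 (adjusted p = 0.00323), and by 1.03 within slide 1 (adjusted p = 0.0516). The ERK target kinase Rps6ka1 fell by 0.66 ± 0.16 (adjusted p = 0.0234), and by 0.60 within slide 1 (adjusted p = 0.181).

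Of 7 tested ERK feedback genes, most of whose products restrain the pathway that induces Fos and Egr1, 1 was higher and 3 lower, with a median log2 change of -0.28. Spred2, an inhibitor of Ras to Raf signalling, rose by 1.75 ± 0.14 (adjusted p = 0.000119), and by 0.70 with normexp correction (adjusted p = 0.00639). Dusp7, an ERK phosphatase, fell by 2.28 ± 0.26 (adjusted p = 0.000705). Its relative Dusp6 fell by 0.84 ± 0.16 (adjusted p = 0.00933), and by 0.87 within slide 1 (adjusted p = 0.0832). Sums of signal, here and below, follow the brightest probes most, and levels of different probes are not comparable. The summed signal of the 7 genes, over the 75th percentile, was 7.63, 8.18 and 8.50 in Ebf1-virus cells, against 18, 17.5 and 19.8 in control-virus cells. Dusp7 alone made up 1.40, 2.66 and 2.36 of these in Ebf1-virus cells, against 10.3, 8.55 and 11.5 in control-virus cells. Without it the sums were 6.23, 5.52 and 6.14 in Ebf1-virus cells, against 7.77, 8.93 and 8.28 in control-virus cells.

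**Figure D5:**
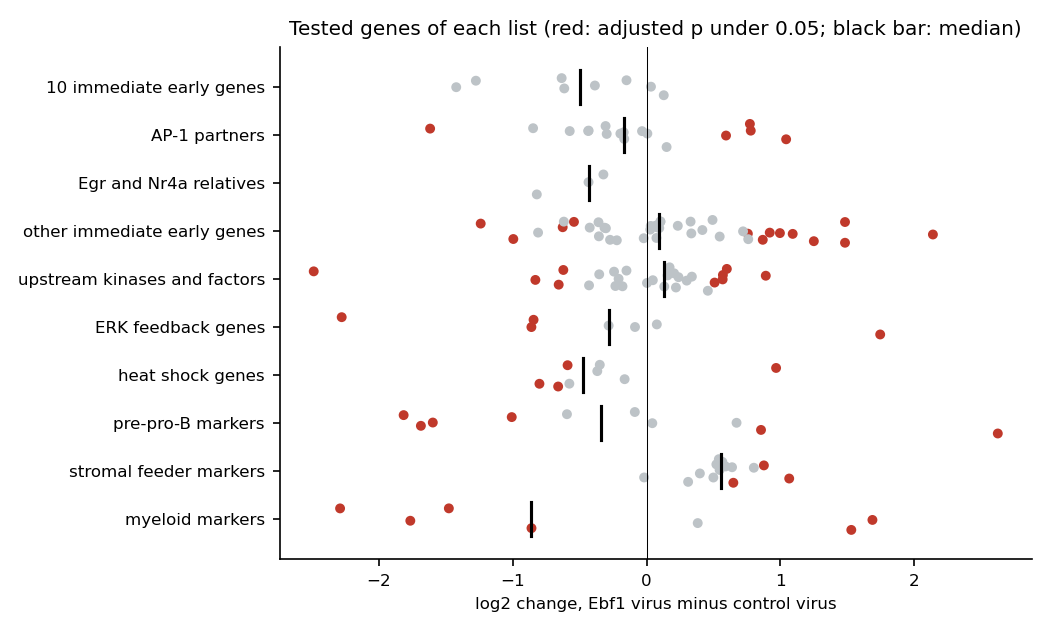
Log2 change (Ebf1 virus minus control virus) of each tested gene of the 10 immediate early genes and of 9 further lists, 1 point a gene. Red points passed the test and black bars are medians; none of the 8 tested members is red, while 9 of the other immediate early genes lie higher and 4 lower.

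Markers of the sorted cells and of others that the culture could hold were measured beside these genes. All 10 pre-pro-B markers were well above background on all 6 arrays, and 2 were higher and 4 lower, led by Ly6d (up by 2.62 ± 0.19), Spn (down, log2 change -1.60 ± 0.14) and Il7r (-1.69 ± 0.15), with adjusted p-values of 7.36e-05, 0.000173 and 0.000196. Of 20 stromal feeder markers, 14 were tested and 3 were higher (Fstl1, Fn1 and Col5a1), of which Fn1 also passed with slide as a block (adjusted p = 0.312 for Fstl1, 0.0403 for Fn1 and 0.0699 for Col5a1). The median log2 change of the 14 was 0.56, against -0.065 over all tested genes. With normexp correction 6 of them were called higher, and with median scaling 0 were, with a median of 0.25. The summed signal of the 14 was 60.9, 49.6 and 49.7 in Ebf1-virus replicates 1 to 3, against 42.5, 44.4 and 42.8 in control-virus replicates 1 to 3. Without Acta2, the brightest probe, it was 37.2, 28.4 and 30.5 in Ebf1-virus cells, against 18.3, 25.5 and 20.8 in control-virus cells. Pdgfra, Vcam1, Postn, Lum, Dcn and Thbs1 did not pass the filter. Of 7 tested myeloid markers 2 were higher (Csf1r and Cebpb) and 4 lower (Fcgr1, Mpo, Emr1 and Cebpa), with a median log2 change of -0.86. Their summed signal was 41.1, 33.1 and 34.6 in Ebf1-virus cells, against 21.5, 32.3 and 29.3 in control-virus cells. Most of the Ebf1-virus sum was Cebpb, and without it the sums were 7.98, 8.87 and 9.72 in Ebf1-virus cells, against 14.2, 21.4 and 19 in control-virus cells. The myeloid markers Csf3r, Itgam, Cd14 and Elane did not pass the filter. With slide as a block Csf1r did not pass the test (adjusted p = 0.0636). Cebpb, Emr1 and Cebpa are named after their values were seen. Of 8 tested heat shock genes, 1 was higher (Bag3) and 3 lower (Hspd1, Dnajb1 and Hsph1, the last named after its value was seen), and none of these 4 passed with slide as a block (adjusted p = 0.0732 to 0.115). Their summed signal, over all 8, was 567, 594 and 631 in Ebf1-virus cells, against 716, 874 and 826 in control-virus cells. Ebf1-virus replicate 1, where Junb and Jund were highest, was also highest in stromal marker signal, with or without Acta2. Control-virus replicate 1, where Fos, Egr1, Egr2 and Nr4a1 were highest of the 6 arrays, was lowest in that signal, with or without Acta2. The part of these signals in the members' values was not tested.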

How the data were processed

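Per the file headers, the authors deposited spot intensities on a linear scale, made with Agilent Feature Extraction 10.5.1.1 (1-colour protocol with background subtraction) and annotated on mm9; the submitters' processing notes name the same software. The deposited series table equals these intensities. From them, log2 processed signal minus each array's 75th percentile was computed, outlier spots were left out (65 to 116 per array) and spots of a probe were averaged. Probes well above background on all 3 arrays of at least 1 group were tested (20455 of 41174, the other 20719 not), two-sided, with limma 3.58.1 (lmFit, eBayes) in R 4.3.3 and Benjamini-Hochberg adjustment. All changes are Ebf1 virus minus control virus. Accessions of 25097 probes (61%) matched a GRCm38.p6 table, and no further probe gave a member's symbol. In a simulation, the fit without a block recovered 0% of true log2 changes of 0.5 and 36% of changes of 1. It recovered 80% of changes of 2 and 98% of changes of 4, and called 6 unchanged probes. With the replicate number as a block, 0% were recovered at 0.5 and at 1, 46% at 2 and 90% at 4. Changes of 1 or less could thus be missed. The number of arrays (6) limits the precision.

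The members and lists were chosen with earlier results of these data known. Named were all members, up to 3 called genes of each list with the smallest p (1 where none was called), and the 3 genes nearest to Fos and Egr1. Alternatives were normexp (offset 50), quantile and median scaling, other filters, slide as a fixed or random block, the replicate number as a block, a trended robust variance, the mean of a gene's probes, the series table and leaving out arrays 1 at a time.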

Additional observations from a re-analysis of the deposited data

How the results depend on the processing

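Under 22 alternatives Jun, Jund, Nr4a1 and both Junb probes were never called, while Fos was called lower in 5 and Fosb, Egr1 and Egr2 in 3 each. Called member probes, none at first, numbered 4 lower with median scaling, 1 lower (Fosb) with trended robust variance and 0 to 1 lower when 1 array was left out. All probes called were 1256 higher with median scaling, 1341 higher and 655 lower without the filter, and 1270 higher and 898 lower with slide as a fixed block; leaving out 1 array gave 1623 to 2112 higher and 1008 to 1700 lower. For the lists (27 higher and 23 lower in all) the counts were 8 higher with median scaling, 11 and 11 without the filter, 9 and 14 with the slide block, and 16 to 21 higher and 14 to 20 lower without 1 array. The filter's effect includes the larger number of probes tested; the other causes were not tested. Signs turned with slide as a block for the first Junb probe (0.20), Egr1 (0.24), Egr2 (0.29) and Nr4a1 (0.19). They turned with median scaling for the second Junb probe (-0.28, and -0.039 with normexp) and Jund (-0.18). Without 1 array Jun ran from -0.46 to 0.03, the second Junb probe from -0.29 to 0.29, Jund from -0.044 to 0.27, Nr4a1 from -0.88 to 0.023, Fos from -2.05 to -0.60, Fosb from -1.72 to -0.92, Egr1 from -1.12 to -0.16 and Egr2 from -1.22 to -0.19. The mean of a gene's probes left 0 members called. Low signal limits Fosb, Egr3, Atf3 and Jun (39.7 to 56.5 in scanner units over all arrays). It also limits Fos and Egr2 on their dimmest array, Ebf1-virus replicate 3 (34.1 and 36.4).

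The replicate numbers are not stated to mark a shared day, and same-numbered arrays correlated at -0.169, -0.247 and 0.0953 in their deviations from the group means, so the numbers were not taken to pair samples. The largest such correlation between an Ebf1-virus and a control-virus array was 0.29. It joined Ebf1-virus replicate 1 and control-virus replicate 2, which share slide 1. With the replicate block, 0 members were called (Fos -1.28, adjusted p = 0.0533; Fosb 0.135; Egr1 0.0916; Egr2 0.141) and 1233 probes were lower. The number itself was called for 0 of 20455 probes by limma (3.22% at an unadjusted p under 0.05), with unadjusted p-values of 0.00427 for Fos, 0.00194 for Egr1, 0.00395 for Egr2 and 0.00183 for Nr4a1. Chosen after seeing the data, the block was also run without replicate 1 (3 members lower: Fos, Egr1 and Egr2; 1389 probes lower; 14 list genes higher), without replicate 2 (1114 higher and 397 lower; lists 8 and 8) and without replicate 3 (842 and 289; lists 5 and 8). With normexp it called 1 member (Fos, -0.75, adjusted p = 0.0314), with quantile normalisation 1274 probes were lower, and with median scaling 4 members were lower, 1202 probes higher and 8 list genes higher. In these replicate block fits the second Junb probe was at -0.15 without replicate 1, -0.039 with normexp and -0.28 with median scaling, Jund at -0.21 without replicate 1 and -0.18 with median scaling, and Jun at 0.008 without replicate 2.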
